A study of Mus musculus with 4 samples.

Results

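Named long noncoding RNAs, transcripts that act as RNA and encode no protein, were followed in mouse brown adipocytes after knockdown of Blnc1 (brown fat lncRNA 1), itself a long noncoding RNA. The genes were Malat1, Neat1, Meg3, H19, Gas5, Rian, Mirg, Kcnq1ot1, Snhg1 and Snhg11, a list of 10 well-known symbols. Their members are the probe sets, groups of short oligonucleotides that read 1 transcript region, which the platform annotation pairs with exactly 1 of these symbols. This gave 27 of the 45141 probe sets on the array, for 8 of the 10 genes. Meg3 had 10 probe sets, Kcnq1ot1 had 6, Rian had 4, Gas5 had 3, and Malat1, Neat1, Mirg and Snhg11 had 1 each. The annotation paired no probe set with H19. Snhg1 appeared only on 4 probe sets that carry a second symbol, and 4 more probe sets pair Malat1 with another gene, so these 8 were left out.

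The control group was brown adipocytes expressing a scrambled short hairpin RNA (shRNA), with 2 arrays, and the other group was brown adipocytes expressing an shRNA against Blnc1, also with 2 arrays. Both were taken after 6 days of differentiation, and labelled RNA was made from 250 ng of total RNA with a kit that copies from the poly(A) tail. The samples are labelled biological replicates. The mouse strain, the origin of the cells, the number of hairpins and the way they were delivered are not given in the sources used here. No probe set is named Blnc1 in the annotation, so the level of the targeted RNA was not analysed here. With 2 arrays per group, the number of arrays limits the precision of every value.

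Long noncoding RNAs of this kind work in several ways. Some are structural parts of nuclear bodies: Neat1 is the scaffold of paraspeckles, and Malat1 collects in nuclear speckles, where splicing factors are stored. Others come from imprinted domains, where only the copy from 1 parent is active: Meg3, Rian and Mirg are read from the maternal chromosome of the Dlk1-Dio3 domain, and Kcnq1ot1 is read from the paternal chromosome and silences neighbouring genes. A further class, to which Gas5 belongs, carries small nucleolar RNAs (snoRNAs, guides for the modification of ribosomal RNA) in its introns.

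Start-site sequences are shown for Meg3, which had the largest called rise after knockdown, and for Gas5 and Malat1, the genes with a called fall. They come from RefSeq, build GRCm38.p6, and run from 250 bases before to 50 bases after an annotated transcript start, 5′ to 3′ on the gene's strand. The RefSeq windows used covered 8 of the 10 genes, 10 windows in all, and both Meg3 and Gas5 had 2. Windows were filtered by chromosome, so further windows of the listed genes may be annotated. Capitals mark matches on either strand to TGACGTCA (the cAMP response element), CCAAT or TATAAA (the TATA box).
Meg3, chr12:109540746-109541045, plus strand: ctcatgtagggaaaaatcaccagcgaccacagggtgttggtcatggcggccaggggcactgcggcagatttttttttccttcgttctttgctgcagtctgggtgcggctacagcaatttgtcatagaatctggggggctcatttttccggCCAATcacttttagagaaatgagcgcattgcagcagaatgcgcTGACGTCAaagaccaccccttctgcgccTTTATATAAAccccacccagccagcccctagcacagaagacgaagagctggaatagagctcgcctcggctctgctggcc
Gas5, chr1:161034916-161035215, plus strand: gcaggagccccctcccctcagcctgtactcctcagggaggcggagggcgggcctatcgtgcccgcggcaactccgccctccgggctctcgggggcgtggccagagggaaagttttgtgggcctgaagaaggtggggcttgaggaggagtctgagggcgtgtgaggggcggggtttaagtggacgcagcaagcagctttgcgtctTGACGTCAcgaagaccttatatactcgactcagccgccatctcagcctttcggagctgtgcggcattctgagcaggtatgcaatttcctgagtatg
Malat1, chr19:5802623-5802922, minus strand: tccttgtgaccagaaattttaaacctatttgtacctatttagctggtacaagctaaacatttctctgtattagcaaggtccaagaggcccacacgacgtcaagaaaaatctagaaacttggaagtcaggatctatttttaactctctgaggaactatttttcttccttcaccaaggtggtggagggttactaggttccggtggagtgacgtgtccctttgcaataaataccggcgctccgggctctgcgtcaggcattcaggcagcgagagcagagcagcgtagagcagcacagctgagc

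The Meg3 window held TGACGTCA 57 bases before the start, and the Gas5 window held it 46 bases before the start. That motif occurs in 1.79% of the 32851 RefSeq windows of this length. Among the 10 windows used for the listed genes these were the only matches to it. The Meg3 window also held CCAAT, which 37.4% of all windows contain, and TATAAA in both orientations, overlapping each other, which 13.6% of all windows contain. Malat1 had no match to any of the 3 motifs, and neither did the other Meg3 and Gas5 windows. Whether TGACGTCA has a part in the difference of Meg3 or of Gas5 was not tested. Which of their starts these cells use was not measured. A match is a run of letters and not a measured binding site.

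Levels are the deposited log2 values, in which a difference of 1 is a doubling, and a probe set is called when its adjusted p is under 0.05. The p-values are from limma's moderated test, adjusted by Benjamini-Hochberg over all 45037 probe sets that are not controls. A group mean at or below 2.55, the highest value of the control probe sets that match no genome sequence (those with 3 to 24 G or C bases), is at background. Of the 27 member probe sets, 7 were higher after knockdown, 3 were lower and 17 were not called. Over all probe sets 14.1% were called, 8.73% higher and 5.38% lower. The member share was 37.0%, but 4 of the 10 calls are probe sets of Meg3 and are not independent. Among probe sets with both groups above background, which 22 of the 27 members were, 21.1% were called. The median log2 fold change was -0.01 over the members and -0.05 over all probe sets. Over all probe sets the calls were 3933 higher and 2423 lower. Quantile normalization gave 7 members higher and 5 lower, and 3251 probe sets higher and 2871 lower in all. Centring each array on its median gave 10 members higher and 3 lower, and 4771 probe sets higher and 1634 lower in all.

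Some cell type markers and RNA control probe sets also read differently between the groups. Taken with 1 probe set per gene, 10.6% of all genes were called higher and 6.24% lower. Of 6 measured general adipocyte markers, 2 were called higher (Lep and Cd36), 1 lower (Cebpa) and 3 were not called, among them Adipoq, the adiponectin gene, with a log2 fold change of 0.067. Their mean log2 level was 9.43 to 9.51 in scramble and 9.71 to 9.73 in knockdown. The brown marker Ucp1, the heat-producing uncoupling protein, was 3.64-fold lower in the knockdown arrays, and 5 of 9 brown adipocyte markers were lower and 1 higher. Of 6 measured preadipocyte or fibroblast markers, 5 were higher, with a mean log2 level of 4.94 to 5.02 in scramble and 6.01 to 6.09 in knockdown. Cd34 was at background in scramble. Of 6 hepatocyte markers, 5 were lower after knockdown and 1 was at background in both groups. The mean level of the 6 was 4.42 to 4.51 in scramble and 2.51 to 3.18 in knockdown. Alb, the albumin gene, read 6.28 and 5.70 in scramble and 4.43 and 2.50 in knockdown. For Actb, the 3′ control probe set exceeded the 5′ one by 1.07 ± 0.11 log2 units in scramble and by 1.82 ± 0.08 after knockdown (SD, n = 2 each). The same gap for Gapdh was 0.064 ± 0.040 in scramble and 0.37 ± 0.04 after knockdown. A larger gap means less signal far from the poly(A) tail. A control probe set against 18S ribosomal RNA (its middle part) read 4.78 ± 0.49 in scramble and 6.82 ± 0.26 after knockdown (SD, n = 2 each). The part of these shifts in the members' differences was not tested. On these arrays, fewer cells of a type and less RNA per cell cannot be told apart.

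**Figure D1:**
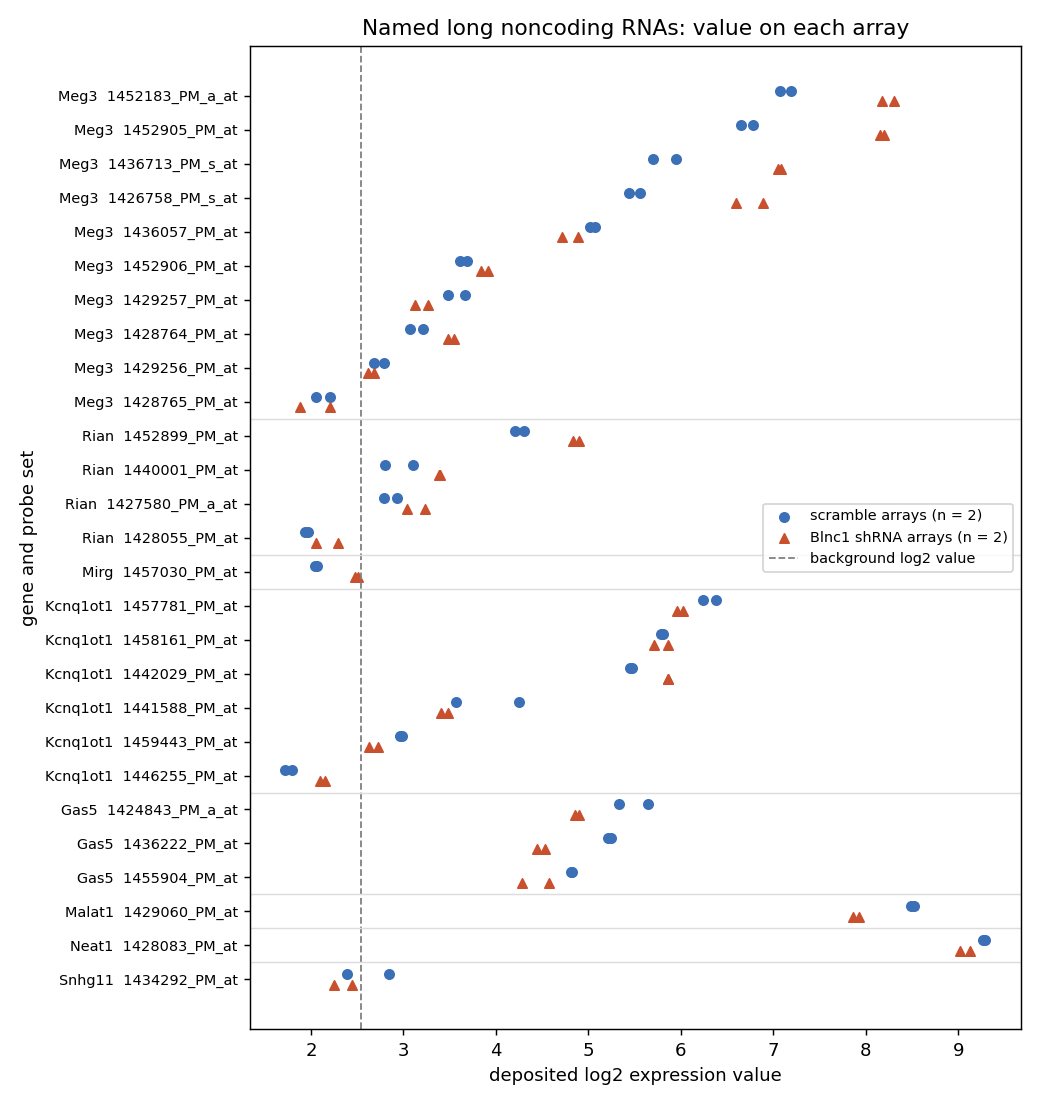
Deposited log2 value (horizontal axis) of every member probe set (vertical axis) on each of the 4 arrays, with circles for scramble and triangles for Blnc1 shRNA, and a dashed line at the background value of 2.55. The 4 brightest Meg3 probe sets have both knockdown arrays above both scramble arrays, and the Malat1 and Gas5 probe sets have them below. Of all probe sets, 24.7% have them above and 34.1% below.

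Meg3, the maternally expressed RNA of the Dlk1-Dio3 domain, rose on 4 of its 10 probe sets, by 2.15-fold to 2.76-fold. Probe set 1452905_PM_at read 6.78 and 6.65 in scramble and 8.15 and 8.20 in knockdown. All 4 called probe sets had the knockdown arrays above the scramble arrays by more than the spread within either group. The log2 fold change of 1452905_PM_at was 1.46 (SE 0.10, 95% interval 1.22 to 1.71, limma adjusted p = 0.000684). Probe set 1452183_PM_a_at read 7.19 and 7.08 in scramble and 8.30 and 8.17 in knockdown, a log2 fold change of 1.10 (adjusted p = 0.00173). Probe set 1436713_PM_s_at read 5.95 and 5.70 in scramble and 7.09 and 7.05 in knockdown, a log2 fold change of 1.25 (adjusted p = 0.0016). Probe set 1426758_PM_s_at read 5.56 and 5.44 in scramble and 6.89 and 6.60 in knockdown, a log2 fold change of 1.24 (adjusted p = 0.00212). The first of these names ends in a plain suffix, while the suffixes _a_ and _s_ mark probe sets that can read several transcripts. Probe sets 1452183_PM_a_at and 1426758_PM_s_at were designed on the same sequence. The 4 calls stood in every alternative that tested them, with adjusted p at most 0.0145, but averaging all 10 probe sets gave Meg3 a log2 fold change of 0.49.

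The other 6 Meg3 probe sets were not called, with log2 fold changes from -0.38 to 0.37. Probe set 1436057_PM_at read 5.07 and 5.01 in scramble and 4.72 and 4.89 in knockdown, a log2 fold change of -0.24 (95% interval -0.50 to 0.02). Probe set 1429257_PM_at read 3.67 and 3.48 in scramble and 3.26 and 3.13 in knockdown, a log2 fold change of -0.38 (adjusted p = 0.0729). Both had all knockdown arrays below all scramble arrays, as 34.1% of all probe sets did, while the bright probe sets of Meg3 had them above. Probe set 1428764_PM_at, designed on the same sequence as 1452905_PM_at, read 3.08 and 3.21 in scramble and 3.48 and 3.55 in knockdown. Its log2 fold change was 0.37 (adjusted p = 0.0599, but 0.0369 with arrays centred on their medians and 0.0463 with probe sets at background left out). Probe set 1428765_PM_at, also designed on that sequence, was at background, with values from 1.88 to 2.20. The difference between probe sets of Meg3 was not tested. With 1452906_PM_at the log2 fold change was 0.23, and with 1429256_PM_at it was -0.09, so regions annotated to this gene did not read alike. No genome was at hand to place the probes in exons or introns, and the part of the Actb 3′ to 5′ shift (1.07 to 1.82) in this pattern was not tested.

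Rian, a neighbour of Meg3 whose introns hold snoRNAs and microRNAs, rose on 1 of its 4 probe sets. Probe set 1452899_PM_at read 4.30 and 4.21 in scramble and 4.90 and 4.84 in knockdown. The groups did not overlap, and the log2 fold change was 0.61 (SE 0.10, 1.53-fold, adjusted p = 0.0107). Without knockdown replicate 1 or 2 its adjusted p was 0.0788 and 0.0662. Probe set 1440001_PM_at read 2.80 and 3.10 in scramble and 3.39 and 3.38 in knockdown (adjusted p = 0.0657, but 0.0442 with arrays centred on their medians and 0.0238 without scramble replicate 2). Probe set 1427580_PM_a_at had a log2 fold change of 0.27. Probe set 1428055_PM_at was at background, at 1.93 and 1.97 in scramble and 2.30 and 2.06 in knockdown. All 4 Rian probe sets had both knockdown arrays above both scramble arrays; over all probe sets 24.7% did so, and 58.9% had groups that did not overlap in either direction.

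Mirg, a microRNA host further along the domain, read 2.04 and 2.07 in scramble and 2.51 and 2.48 in knockdown. Both groups were at background, so the size of the difference is not interpreted, although it was called as higher (adjusted p = 0.0292). Leaving out knockdown replicate 1 or 2 gave an adjusted p of 0.161 and 0.148, and leaving out scramble replicate 1 or 2 gave 0.064 and 0.0506. Dlk1, the paternally expressed protein-coding gene of the same domain and an inhibitor of fat cell differentiation, read 4.89 and 5.15 in scramble and 5.53 and 5.68 in knockdown. It was 1.51-fold higher (adjusted p = 0.0253), and its adjusted p was 0.0625 when scramble replicate 1 was left out, 0.078 or 0.155 when a knockdown replicate was, and 0.0783 after quantile normalization. Dlk1 is also on the preadipocyte list. Dio3os, a noncoding RNA at the other end of the domain that was picked after its values were seen, read 3.79 and 3.52 in scramble and 3.16 and 3.29 in knockdown, and was not called (log2 fold change -0.43, adjusted p = 0.0663). Every call in the domain was thus higher, while Dio3os and 4 of the 10 Meg3 probe sets had a negative log2 fold change without a call. No parental copy was measured. The part of the cells that carry preadipocyte markers in these values was not tested.

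Kcnq1ot1, the antisense RNA that silences imprinted genes around Kcnq1, gave no single direction over its 6 probe sets. Probe set 1442029_PM_at read 5.47 and 5.45 in scramble and 5.87 and 5.86 in knockdown, a log2 fold change of 0.40 (1.32-fold, adjusted p = 0.0371). That call was lost after quantile normalization (log2 fold change 0.24, adjusted p = 0.163) and without any 1 of the 4 arrays (adjusted p 0.0665 to 0.189). Probe set 1457781_PM_at read 6.38 and 6.24 in scramble and 6.02 and 5.96 in knockdown, a log2 fold change of -0.32. It was not called (adjusted p = 0.0909), but it was under quantile normalization (0.0276) and with an eBayes trend (0.044). In both probe sets the groups did not overlap, in opposite directions. Over all probe sets, 58.9% had groups that did not overlap. Probe set 1458161_PM_at had a log2 fold change of -0.012 (95% interval -0.26 to 0.24), or 0.053 with arrays centred on their medians. Probe set 1441588_PM_at read 4.25 and 3.57 in scramble and 3.41 and 3.48 in knockdown (adjusted p = 0.186). The scramble arrays differ there by more than the groups do, and without scramble replicate 2 its adjusted p was 0.00948. Probe set 1459443_PM_at had a log2 fold change of -0.30. Probe set 1446255_PM_at was at background, at 1.72 and 1.79 in scramble and 2.10 and 2.15 in knockdown, with an adjusted p of 0.0552, and of 0.0318 to 0.0341 in eBayes with a trend and under both other scalings.

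Kcnq1 itself, the potassium channel gene that Kcnq1ot1 overlaps, read 3.40 and 3.10 in scramble and 2.92 and 2.84 in knockdown (adjusted p = 0.104, and 0.0362 without scramble replicate 2). Cdkn1c, a cell cycle inhibitor gene silenced by Kcnq1ot1 in other tissues, had a log2 fold change of 0.062 (adjusted p = 0.776), or -0.069 after quantile normalization. Both were picked for their place in the domain. Among 12 measured imprinted neighbours of the listed genes, 2 were called higher and 0 lower (limma; 1 lower at an unadjusted p under 0.05). Over the 12, the median log2 fold change was 0.04, and 2 were at background in both groups. Taken with 1 probe set per gene, 16.8% of 17097 genes were called, 10.6% higher and 6.24% lower, with a median of -0.04. The second called neighbour was Igf2, the growth factor gene that shares an imprinted domain with H19, at 4.03 and 3.94 in scramble and 4.76 and 4.66 in knockdown. It was 1.66-fold higher (adjusted p = 0.00634, and 0.0509 without knockdown replicate 1). No call among these neighbours was made by limma without knockdown replicate 1, where 2 had an unadjusted p under 0.05.

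An imprinted network described around H19 had 8 measured genes, of which 3 were called higher and 1 lower (median 0.24). Gnas, 1 of the 8, was at background in both groups. Over all genes, with 1 probe set each, 10.6% were called higher and 6.24% lower. Plagl1, a zinc finger transcription factor that drives other imprinted genes, was 2.13-fold higher (adjusted p = 0.0014). Ndn, which encodes necdin, was 2.65-fold higher (adjusted p = 0.00225), from 4.29 and 3.91 to 5.58 and 5.43. Sgce, the epsilon-sarcoglycan gene, was 1.65-fold higher (adjusted p = 0.00634, and 0.0518 without knockdown replicate 2). Peg3, a zinc finger gene, fell 1.53-fold (adjusted p = 0.0101), and leaving out knockdown replicate 1 or 2 gave 0.0552 and 0.0848. Paternally expressed genes therefore went both ways on these arrays.

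**Figure D2:**
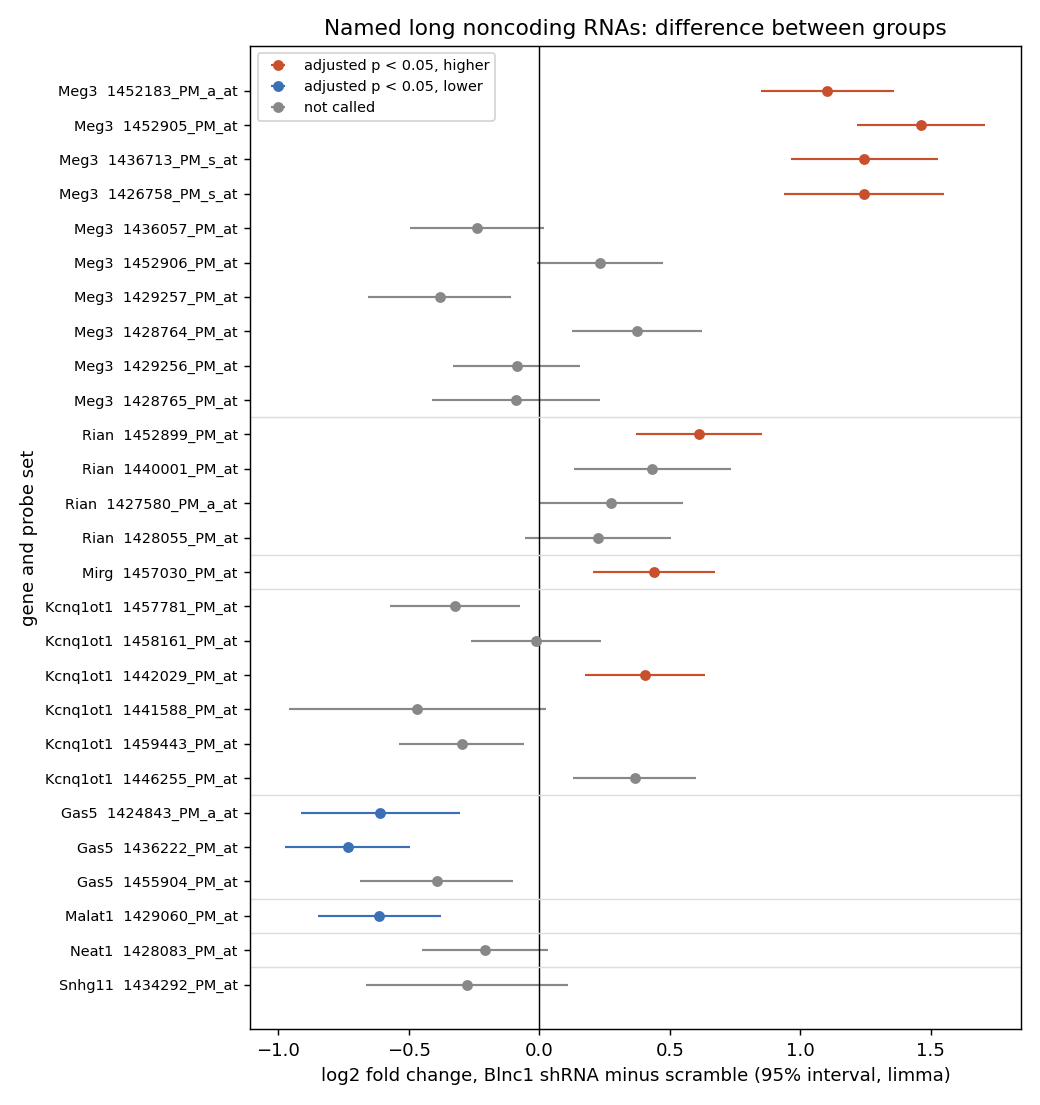
Log2 fold change, Blnc1 shRNA minus scramble (horizontal axis), of each member probe set (vertical axis), with its 95% interval from limma and colours for probe sets called higher, called lower or not called. The called Meg3 probe sets lie between 1.10 and 1.46, and the other 6 Meg3 probe sets lie between -0.38 and 0.37.

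Gas5, a snoRNA host that builds up in arrested cells and is degraded when it is translated, fell on 2 of its 3 probe sets. Probe set 1436222_PM_at read 5.21 and 5.24 in scramble and 4.54 and 4.45 in knockdown. The groups were well apart, and the log2 fold change was -0.73 (SE 0.10, 1.66-fold lower, adjusted p = 0.00559). Without knockdown replicate 2 its adjusted p was 0.0527. Probe set 1424843_PM_a_at read 5.64 and 5.33 in scramble and 4.90 and 4.86 in knockdown, 1.52-fold lower (adjusted p = 0.0242). Leaving out scramble replicate 1 gave it an adjusted p of 0.0531, and leaving out knockdown replicate 1 or 2 gave 0.102 and 0.131. Probe set 1455904_PM_at read 4.82 and 4.83 in scramble and 4.29 and 4.57 in knockdown (log2 fold change -0.39, adjusted p = 0.082, and 0.04 after quantile normalization). All 3 probe sets, each designed on its own sequence, had the knockdown arrays below the scramble arrays, as 34.1% of all probe sets did. Both other scalings kept the direction.

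Snhg11, another snoRNA host gene, read 2.39 and 2.84 in scramble and 2.44 and 2.25 in knockdown. The groups overlapped, the knockdown mean was at background, and the adjusted p was 0.309. Other snoRNA hosts were taken from a list of other long noncoding RNAs by their symbols (Snhg genes and Zfas1). They numbered 9, with 3 called lower and 0 higher (limma; also 0 higher at an unadjusted p under 0.05). Of the 9, 8 had a negative log2 fold change (median -0.28). Among those 8, Snhg14 was at background in both groups, with means of 2.29 in scramble and 2.11 in knockdown. Over all 17097 genes, 6.24% were called lower and 55.8% had a negative log2 fold change. Those lower were Snhg16, from 5.63 and 5.64 to 4.73 and 4.67 (1.91-fold, adjusted p = 0.00229), Snhg6 (1.62-fold, adjusted p = 0.00646) and Zfas1 (1.51-fold, adjusted p = 0.0135). Without knockdown replicate 1 the adjusted p was 0.0502 for Snhg6 and 0.0764 for Zfas1, and without replicate 2 it was 0.0947 for Zfas1.

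Proteins that bind snoRNAs of the C/D class, the class carried by Gas5, were measured for 9 genes (median -0.05). Of these, limma called 2 lower and 0 higher, with 2 higher at an unadjusted p under 0.05. Over all genes, with 1 probe set each, 16.8% were called, 10.6% higher and 6.24% lower. Ruvbl2, which encodes an assembly helicase, fell 1.54-fold (adjusted p = 0.0106), and Snu13, a core protein gene, fell 1.43-fold (adjusted p = 0.0231). Without knockdown replicates 1 and 2 the values for Ruvbl2 were 0.0544 and 0.0877. For Snu13 they were 0.0807 and 0.16, with 0.0576 without scramble replicate 1 and 0.0562 as the mean of its probe sets. Fbl, the methyltransferase of these particles, had a log2 fold change of -0.30 and was not called (adjusted p = 0.112), but was in eBayes with a trend (0.0145) and as the mean of its probe sets (0.0218). Protein-coding snoRNA hosts, with 1 of 7 genes at background in both groups, gave 2 lower calls (median -0.05). These were the translation factor genes Eef2 (1.34-fold, adjusted p = 0.0389) and Eif4a1 (1.32-fold, adjusted p = 0.0399). Neither was called without any 1 array, with the replicate number as a block (0.0509 and 0.0524) or with arrays centred on their medians (0.0652 and 0.0674). Nonsense-mediated decay, which degrades Gas5, was covered by 9 genes for its factors and targets, and 1 of them was called, as higher (median 0.01). The higher gene was Gadd45b, a stress-response gene and a target of the pathway (1.41-fold, adjusted p = 0.0481). It lost its call without scramble replicate 2 (0.109), without knockdown replicate 1 (0.179) or 2 (0.194), and after quantile normalization (0.108).

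Malat1, the nuclear speckle RNA, fell 1.53-fold. Its probe set 1429060_PM_at read 8.52 and 8.49 in scramble and 7.93 and 7.86 in knockdown. Replicates lay close together and the groups did not overlap. The log2 fold change was -0.61 (SE 0.10, 95% interval -0.85 to -0.38, adjusted p = 0.00975). Without knockdown replicates 1 and 2 the adjusted p was 0.0547 and 0.0839. Malat1 ends in a triple helix and not in a poly(A) tail, while the labelling copied from poly(A), so the probe set may read only part of the RNA.

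Neat1, the paraspeckle scaffold and the neighbour of Malat1 on chromosome 19, read 9.27 and 9.29 in scramble and 9.02 and 9.13 in knockdown. Both knockdown arrays were lower, but the log2 fold change of -0.21 (SE 0.10, 95% interval -0.45 to 0.03) was not called (adjusted p = 0.223). In eBayes with a trend its adjusted p was 0.0217. Paraspeckle proteins were covered by 14 genes, and the calls were 1 higher and 2 lower (median -0.08). With 1 probe set per gene, 16.8% of all genes were called, 10.6% higher and 6.24% lower. The core proteins Sfpq and Nono had log2 fold changes of 0.20 (adjusted p = 0.249) and 0.10 (adjusted p = 0.561). Cpsf7, a 3′ end processing factor gene, was 1.57-fold lower (adjusted p = 0.0145), and Taf15, an RNA-binding protein gene, was 1.38-fold lower (adjusted p = 0.0274). Hnrnpm, a splicing regulator gene, was 1.42-fold higher (adjusted p = 0.0269). None of these 3 was called without knockdown replicate 1 or without knockdown replicate 2 (adjusted p 0.0773 to 0.175). Hnrnpm had 0.0691 without scramble replicate 1, and Taf15 had 0.0664 without scramble replicate 2 and 0.115 as the mean of its probe sets.

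The list of other long noncoding RNAs had 36 measured members, of which 3 were called higher and 6 lower (median -0.04). At background in both groups were 5 of the 36. With 1 probe set per gene, 10.6% of all genes were called higher and 6.24% lower. All 9 are named here, those past the 4 largest changes after their values were seen. Dnm3os, which hosts microRNAs of the miR-199 and miR-214 families, rose 2.88-fold, from 3.57 and 3.57 to 5.00 and 5.18 (adjusted p = 0.000691). Dubr (1.72-fold, adjusted p = 0.0185) and Tug1 (1.67-fold, adjusted p = 0.00693) were also higher. Dubr was not called without knockdown replicates 1 and 2 (0.081 and 0.0937), and Tug1 was not called without knockdown replicate 1 (0.0524). Averaging its probe sets moved Tug1 from 0.74 to 0.089 on the log2 scale. The probe set annotated to Orly fell 4.44-fold, from 5.31 and 5.56 to 3.30 and 3.26 (adjusted p = 0.000467). That probe set carries the suffix _s_, so it can read several transcripts, and whether its signal is Orly RNA was not tested. The mean of all probe sets annotated to Orly fell by 0.99 on the log2 scale. Mir17hg, the host of the miR-17 cluster, fell 1.72-fold (adjusted p = 0.0061), and Firre, a nuclear organising RNA, fell 1.65-fold (adjusted p = 0.011; 0.0735 with knockdown replicate 1 left out). The other 3 lower RNAs were the snoRNA hosts above. The list held 3 lower members without knockdown replicate 1.

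**Figure D3:**
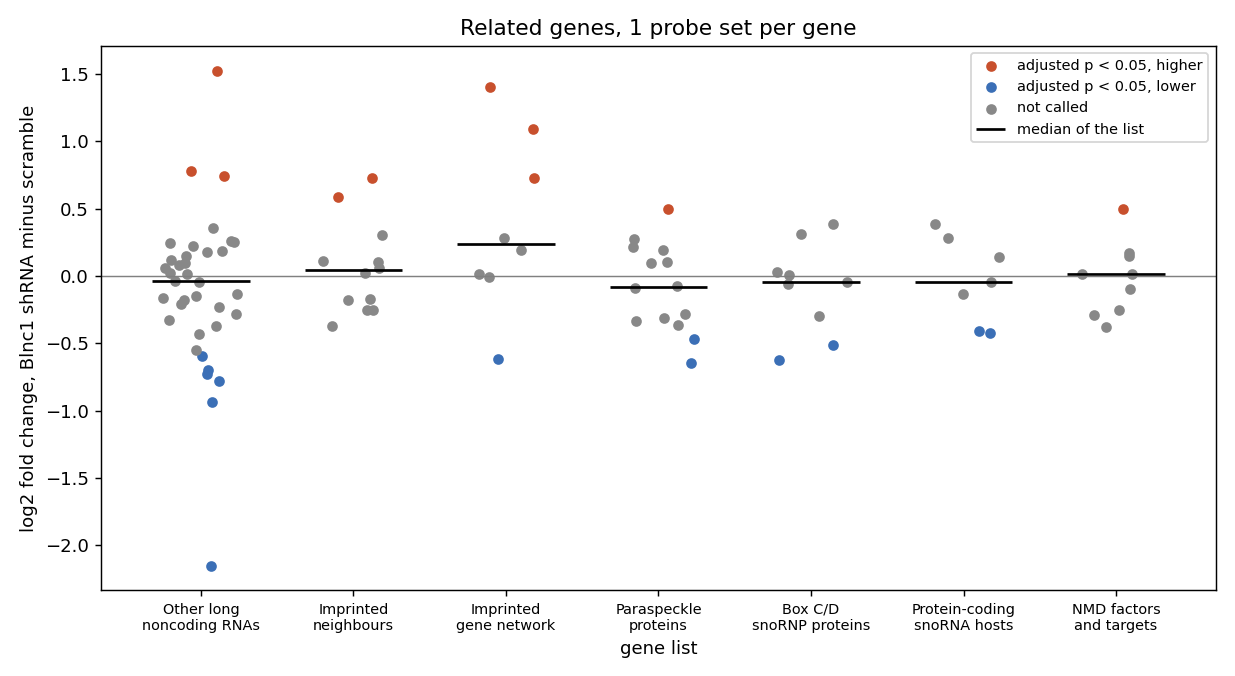
Log2 fold change, Blnc1 shRNA minus scramble (vertical axis), of each measured gene of the related lists (horizontal axis), with 1 probe set per gene, colours for calls and a bar at the list's median. The medians lie between -0.08 and 0.24. The largest changes are the fall of the probe set annotated to Orly and the rises of Dnm3os and Ndn.

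Likeness of pattern was measured as the distance between log2 values over the 4 arrays, each centred on its own mean, where smaller is more alike. For Meg3 1452905_PM_at, the largest called rise, the 3 nearest genes were Car13, a carbonic anhydrase gene (distance 0.049), Mgp, the matrix Gla protein gene (0.056), and Ptn, the pleiotrophin gene (0.064). Mgp read 7.86 and 7.74 in scramble and 9.31 and 9.30 in knockdown. For Gas5 1436222_PM_at, the largest called fall, they were Rnps1, which encodes an exon junction protein (0.026), Ndrg2 (0.037) and Vegfa, the vascular growth factor gene (0.037). Rnps1 read 6.45 and 6.49 in scramble and 5.80 and 5.72 in knockdown. With 4 arrays in 2 groups, such distances mainly rank genes with a like difference between the groups.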

How the data were processed

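Affymetrix mouse PM strip arrays held 2 scramble and 2 Blnc1 shRNA samples. The log2 expression values are as deposited by the authors; the tools limma, affy and RMA appear without version in the submitters' processing notes. Values between 1.05 and 12.36 show the scale, while the exact normalization steps were not stated in the labels.

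Probe sets were named by the platform annotation, and all 27 members matched RefSeq (GRCm38.p6) by Entrez ID and symbol. Controls (104 probe sets) were left out. Tests used R 4.3.3 and limma 3.58.1 (lmFit and eBayes, group as the only term, two-sided, 2 residual and 4.93 prior degrees of freedom), with a threshold of 0.05. The median standard error was 0.11 log2 units. Lists were described by counts and medians over the brightest probe set of each gene. Every member is described; from each list up to 4 called genes with the largest changes are named; further calls, and Kcnq1, Cdkn1c, Sfpq, Nono and Fbl (for their roles), were added with values known. The alternatives were 2 other scalings, a filter at background, 2 variance models, the replicate number as a block, adjustment over genes, the mean of a gene's probe sets, and leaving out each array, where a lone array is assumed to vary like the other group. On 5 simulated data sets (45037 probe sets, 200 changed), 1.19% of changes of 0.5 log2 units, 73.4% of 1 and 99.4% of 2 were called. Of the simulated calls, 4.78% were false. The data gave 6356 calls, so the adjustment was less strict there, and the shares of changes called do not carry over to the data. Plots used matplotlib 3.10.9. Members and lists were chosen with earlier results of these data known.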

Additional observations from a re-analysis of the deposited data

How the results depend on the processing

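With quantile normalization or eBayes with a trend, 5 member probe sets were called lower in place of 3. With 1 probe set per gene adjusted over genes, or averaging the probe sets of each gene, 8 values stand for the members. In both settings 3 of the 8 were higher and 2 lower, in place of 7 and 3 of the 27 probe sets. Of 17097 genes, 3363 and 3015 were called, in place of 6356 of 45037 probe sets. Leaving out 1 array gave 4 to 6 members higher and 0 to 4 lower, and 1925 to 6050 probe sets called in all. The lowest counts came without a knockdown array. Without knockdown replicate 2, limma called 0 members lower, with 5 lower at an unadjusted p under 0.05. With the replicate number as a block, 7 members were higher and 3 lower, and 6508 probe sets were called, so the block changed no call of a member. Same-numbered arrays did not deviate together (r = 0.036 over probe sets), so the numbers were not taken as pairs. Signs turned for 3 values near 0. The log2 fold change of Kcnq1ot1 1458161_PM_at was 0.053 with arrays centred on their medians, and -0.086 to 0.063 with 1 array left out. That of Meg3 1428765_PM_at was -0.25 to 0.070 with 1 array left out. That of Cdkn1c was -0.069 after quantile normalization and -0.065 to 0.19 with 1 array left out. The cause of these differences was not tested. Signal over background limits Mirg, Snhg11 and the dimmest probe sets of Meg3, Rian and Kcnq1ot1.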
